A study of Mus musculus with 82 samples.

Results

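H3K27ac, the acetylation of histone H3 at lysine 27, was compared between Del(CBS1-2) and wild-type (wt) stembryos at 120 h after aggregation. The comparison used the 4 H3K27ac libraries labelled Del(CBS1-2) 120 h, replicates 1 and 2, and wt 120 h, replicates 1 and 2, of the 21 H3K27ac libraries and 82 samples of the series. Their lists merged into 88182 regions, and the 30408 regions called in all 4 lists, 12103 at promoters and 18305 distal, were tested. Stembryos, also called gastruloids, are aggregates of mouse embryonic stem (mES) cells, exposed to a Wnt agonist between 48 h and 72 h, that grow out along 1 axis. The wt cells were EmbryoMax 129/SVEV mES cells. The Del(CBS1-2) line came from these cells by CRISPR/Cas9 editing on both alleles, first of the CTCF site CBS1 and then of CBS2. The Del(CBS1) line, which lacks CBS1 alone, was its parent and was compared at the same stage. Each replicate was a pool of whole stembryos, and from 108 h only elongating stembryos had been collected, so that fewer cells of a type and less acetylation per cell cannot be told apart in these libraries. All Del(CBS1-2) libraries carry the label tag "cell line" and all wt and Del(CBS1) libraries at 120 h the tag "cell type". Genotype and tag therefore cannot be told apart.

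The Hox genes encode the transcription factors that give each level of the body axis its identity, and in a cluster they are switched on one after the other from the anterior (3′) to the posterior (5′) end. CTCF is a zinc-finger protein at which cohesin stalls while it extrudes chromatin loops, so that bound sites partition a cluster into insulated stretches. H3K27ac marks active promoters and enhancers. In HoxD, CBS1 lies between Hoxd8 and Hoxd4 and CBS2 between Hoxd9 and Hoxd8, and deleting both removes the borders that separate the early anterior genes from the central genes Hoxd8 and Hoxd9.

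The sequences of the CTCF motif matches at both targeted sites, with 8 flanking bases on each side, are shown as the reference genome has them (GRCm38.p6, plus strand; the cells are of a 129 background, which was not sequenced here). Capitals mark a match to the core of the CTCF motif, CCNNNAGNNNGCGC, searched on both strands of the called CTCF regions. Such a match was found in 9.6% of the 64255 CTCF regions of wt stembryos at 72 h and within 100 bp of the summit in 0.888% of the tested H3K27ac regions. CBS2 is at chr2:74702387-74702416 and CBS1 at chr2:74715913-74715942. In the GENCODE annotation CBS2 is intergenic, between the last exon of Hoxd9 and the first of Hoxd8, and CBS1 lies in an exon of the antisense RNA Hoxd3os1 and in the first intron of a long Hoxd3 transcript.
CBS2: gcatttggCCACTAGAGAGCGCtgttgctc
CBS1: agctttgtCCAGGAGGAGGCGCtgtaggac

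A CTCF region was called over both sites in wt stembryos and over neither in the Del(CBS1-2) mutant. Over CBS1 the CTCF pileup, the number of fragments stacked at the summit, was 68 at 72 h and 178 at 168 h in wt, and no region was called in Del(CBS1) or Del(CBS1-2) at 96 h. Over CBS2 it was 48 and 134 in wt and 78 in Del(CBS1), and no region was called in Del(CBS1-2). At 4 further CTCF regions of the cluster, posterior to CBS2, regions were called in Del(CBS1-2) with pileups between 26 and 81. These CTCF lists had no replicates.

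The mutant libraries at 120 h were the deeper ones. Their lowest background, which stands for depth because the peak lists hold no read totals, was 4.53 and 4.16 fragments per base against 3.05 and 2.97 in wt, and they listed 62965 and 61894 regions against 53644 and 51590. Heights were therefore divided by the median of their own library over the tested regions, which was 31 and 28 fragments in wt and 47 in both mutant libraries. Differences are given as log2 of Del(CBS1-2) over wt after this centring, with the standard error (SE) and the Benjamini-Hochberg adjusted p of limma over all 30408 regions, and a region was called at an adjusted p under 0.05. Between the replicates of a group the log2 pileups correlated with r = 0.921 in wt and 0.957 in the mutant. Replicates were pools, and the paper states that some ChIP replicates came from different cultures, without saying which. The standard deviation of the log2 ratio between replicates was 0.33 in wt and 0.29 in the mutant. Counting alone would give 0.39 and 0.32. The p-values thus rest on a spread no larger than counting error between 2 pools per group, and need not cover variation between cultures.

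In HoxD, the differences that passed the test lay posterior to CBS1. Of the 15 tested regions of the cluster 3 were called higher in Del(CBS1-2) and none lower, against 4.13% higher and 0.904% lower among all tested regions. They lay at Hoxd9, at Hoxd8 and at a start of Hoxd3 that is 3.6 kb posterior to CBS1. None of the 10 tested regions anterior to CBS1, around Hoxd4, Hoxd3 and Hoxd1, was called by limma (2 higher and 0 lower at an unadjusted p under 0.05).

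The largest difference of the cluster was at Hoxd9, which specifies posterior trunk levels (chr2:74698550-74700806, over the gene, with its summit 1645 bp from the start). Its pileup was 63 and 52 fragments in wt and 175 and 159 in Del(CBS1-2). Both mutant libraries stood above both wt libraries, by more than the difference in library medians. The centred difference was 0.87 (SE 0.15, n = 2 per group, adjusted p = 0.00485), a 1.83-fold difference, and it ranked 56 among all tested regions. Leaving out any 1 library gave adjusted p-values between 1.71e-06 and 0.0297. A second region at the Hoxd9 start (chr2:74697578-74698272) had 42 fragments in wt replicate 1, was not called in wt replicate 2, and had 126 and 108 in the mutant, so that it was not tested.

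Hoxd8, which lies between both deleted sites, was also higher. At its start (chr2:74704069-74704725) the pileup was 45 and 46 in wt and 133 and 101 in Del(CBS1-2), and the groups did not overlap after centring either. The difference was 0.68 (SE 0.17, adjusted p = 0.0262), but without mutant replicate 1 the adjusted p was 0.294 and without mutant replicate 2 it was 0.0668. A region 1143 bp from the start (chr2:74705899-74706912) had 46 and 55 against 110 and 108 fragments, a difference of 0.44 that did not pass the test (adjusted p = 0.126).

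Between CBS2 and CBS1, the start of a long Hoxd3 transcript (chr2:74711919-74712751), which also overlaps Hoxd3os1, had the highest pileup of the cluster in the mutant. It held 139 and 102 fragments in wt and 305 and 300 in Del(CBS1-2), which is more than the difference in library medians. The difference was 0.67 (SE 0.12, adjusted p = 0.00545). The next region toward CBS1, 1.59 kb posterior to it (chr2:74714062-74715117), had 100 and 93 against 166 and 164 fragments, a centred difference of 0.10 (adjusted p = 0.697). Hoxd3 and Hoxd4 encode anterior Hox proteins, and their annotated starts reach into the stretch around CBS1.

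On the anterior side of CBS1 no difference passed the test. The 3 Hoxd4 promoter regions, between 4.58 and 6.34 kb from CBS1, gave 0.38 (adjusted p = 0.126), 0.06 and 0.05, of which the last 2 fell below 0 under loess. At the highest of them (chr2:74721359-74721937) the pileup was 142 and 118 in wt and 236 and 196 in the mutant, a centred difference of 0.06 (adjusted p = 0.827). The 7 tested regions from Hoxd4 to Hoxd1 ranged from -0.27 to 0.29, with a median of 0.03. At the posterior end, Hoxd11, Hoxd12 and Hoxd13 held no H3K27ac region in any of the 4 libraries. Hoxd10 had 1 region (chr2:74692471-74692945), not called in wt replicate 1, at 16 fragments in wt replicate 2 and at 40 and 35 in the mutant, and it overlapped a region of the repressive mark H3K27me3 in wt stembryos at 120 h.

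**Figure D1:**
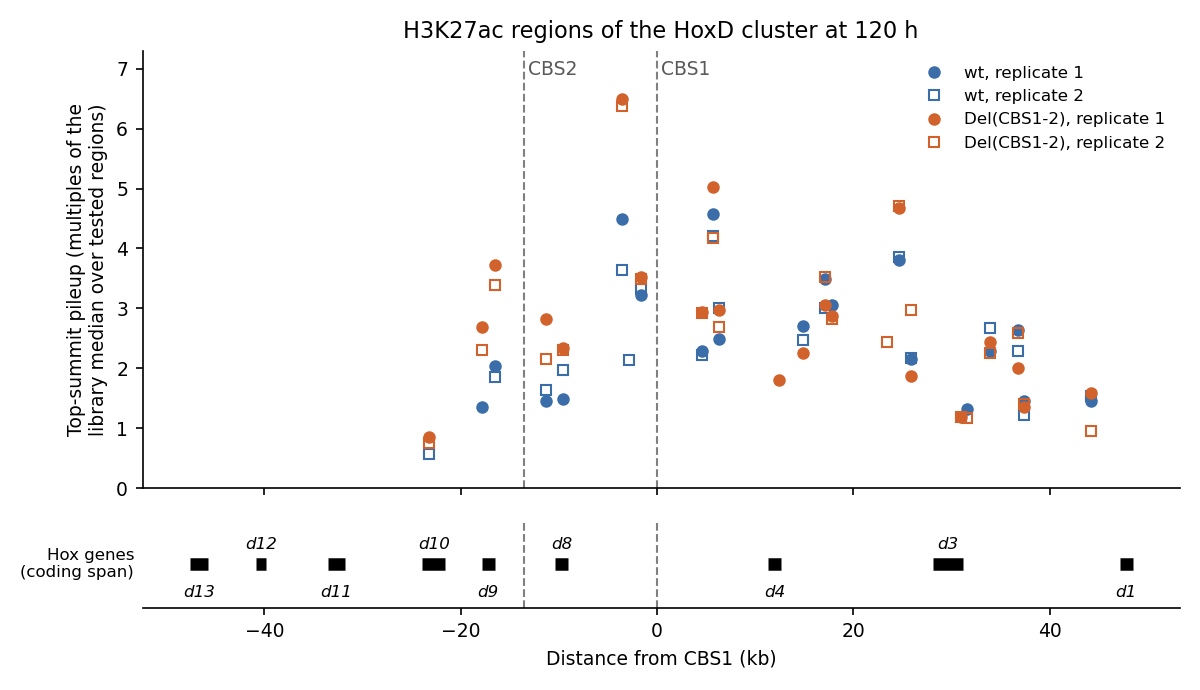
Pileup at the top summit of each H3K27ac region of the HoxD cluster at 120 h, in multiples of the library median over the tested regions, against the distance from CBS1 in kb (negative is posterior), with the coding spans of the Hoxd genes under it and dashed lines at CBS1 and CBS2. Each point is 1 library, and a missing point is a region not called there. The mutant points stand apart from the wt points at Hoxd9, Hoxd8 and 3.6 kb posterior to CBS1, and lie nearer to them anterior to CBS1, where no region was called.

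The share of acetylated sequence is given without a test, since 2 against 2 libraries cannot go below p = 0.33 in a two-sided exact permutation test. Across the genome called regions covered 25.6 and 22.6 Mb in wt and 34.2 and 35.3 Mb in the mutant. How far the values below follow this was not tested. Called regions covered 54.1% and 22.1% of the Hoxd9 window (coding span and 1 kb on each side) in wt and 76% and 74.7% in Del(CBS1-2). Over Hoxd8 they covered 26.6% and 17% against 33.3% and 35.9%. In the anterior segment, from Hoxd4 to Hoxd1, the values were 14.9% and 12.5% against 18.4% in both mutant libraries. With all lists cut to 51590 regions the mutant values were 15.7% and 17.3%, while those of Hoxd9 and Hoxd8 did not change. That cut drops the weakest regions whole and leaves the width of the others as it was, so it cannot correct for wider regions. Coverage records where regions passed the calling threshold, which follows depth and the local background, so an uncovered stretch need not be unacetylated.

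A share within a library does not depend on a single scale factor per library, but it can move with region class or height. The tested Hoxd9 and Hoxd8 regions were all promoter regions, while those anterior to CBS1 included distal ones. Across the genome promoters stood higher than distal regions (median differences 0.20 and -0.09). How far the share follows this was not tested. Of the summed pileup of the 15 tested HoxD regions, the 3 regions of Hoxd9 and Hoxd8 held 12.6% (95% exact binomial interval 10.8 to 14.6%) and 14.2% (12.1 to 16.4%) in wt, and 19% (17.4 to 20.7%) and 17.1% (15.5 to 18.7%) in the mutant. The intervals of wt replicate 2 and mutant replicate 2 overlapped. With the 2 regions between CBS2 and CBS1 added, the share was 32.2% in both wt libraries (29.6 to 34.9% and 29.4 to 35.1%) and 40.4% (38.3 to 42.4%) and 38.6% (36.5 to 40.7%) in the mutant, and no wt interval reached a mutant one. Over all 24 merged regions of the cluster, with uncalled ones at 0, that share was 29.4% (27.1 to 31.8%) and 33.3% (30.6 to 36%) against 36.9% (35.1 to 38.7%) and 35.4% (33.5 to 37.2%), and the interval of wt replicate 2 overlapped both mutant ones. Such intervals cover counting error only, because they take the fragments of a library as independent. They do not cover the variation between libraries of a genotype.

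Outside the cluster few regions of the flanking domains were called. Of the 7 tested regions of the centromeric domain, from Atp5g3 to Hoxd13, none was called by limma (2 higher and 2 lower at an unadjusted p under 0.05, from -0.74 to 0.52), and of 23 in the telomeric domain, which holds the early Hoxd enhancers, 1 was (3 higher and 4 lower at an unadjusted p under 0.05). That 1 was the promoter of Hnrnpa3 at its far end, a gene of an RNA-binding protein (chr2:75657747-75658965), with 149 and 174 fragments in wt and 367 in both mutant libraries (0.51, adjusted p = 0.0156, and 0.11 with adjusted p = 0.737 under loess). The promoters of Lnpk and Mtx2, the nearest genes on either side, gave 0.38 (adjusted p = 0.206) and 0.20 (adjusted p = 0.552). The distal regions of the telomeric domain ranged from -0.76 to 0.38 and none of them passed.

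The calls in HoxD depended on the scaling. With promoter medians centred, chosen after seeing the data, limma still called Hoxd9 (0.67, adjusted p = 0.00607) and the Hoxd3 start (0.47, adjusted p = 0.018). Hoxd8 lost its call there (0.47, adjusted p = 0.082). Under cyclic loess, which flattens the mean difference between libraries across heights, none of the 15 regions was called, and Hoxd9 gave 0.61 (adjusted p = 0.0512), Hoxd8 0.47 (adjusted p = 0.206) and the Hoxd3 start 0.30 (adjusted p = 0.25). With the unnumbered wt library of the time course as an additional wt sample (47 fragments at Hoxd9, 40 at Hoxd8 and 150 at the Hoxd3 start, at a median of 30 over its list) the differences were 0.96, 0.73 and 0.55 and none passed (adjusted p = 0.663 for each).

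Compared with its parent line, Del(CBS1-2) was again higher at Hoxd9 and Hoxd8. Both lines lack CBS1, so this comparison concerns the added loss of CBS2, and it uses the same Del(CBS1-2) libraries as the one with wt. At Hoxd9 the pileup was 78 and 72 fragments in Del(CBS1) against 175 and 159, a centred difference of 0.84 (SE 0.14, adjusted p = 0.000652), and at the second Hoxd9 region 58 and 40 against 126 and 108, a difference of 0.96 (adjusted p = 0.00141). The Hoxd8 regions had 65 and 58 against 133 and 101 (0.60, adjusted p = 0.0354) and 57 and 59 against 110 and 108 (0.59, adjusted p = 0.033). The Hoxd3 start, at 174 and 192 against 305 and 300, differed by 0.41 (adjusted p = 0.0159), and a Hoxd3 promoter 24.6 kb anterior to CBS1, at 126 and 142 against 220 and 221, by 0.40 (adjusted p = 0.0457). A distal region of the telomeric domain, 255 kb from CBS1 (chr2:74971102-74972017), had 26 and 17 fragments in Del(CBS1), 53 and 49 in Del(CBS1-2) and 21 and 30 in wt, and it differed between the deletion lines by 0.96 (adjusted p = 0.0168). Under loess the Hoxd9 regions and the distal region kept their calls, but the Hoxd8 regions (adjusted p = 0.0702 and 0.0633), the Hoxd3 start (0.151) and the Hoxd3 promoter (0.199) did not. Over all 34009 regions tested between the lines 2.25% were higher and 0.565% lower in Del(CBS1-2). Without mutant replicate 1, or without Del(CBS1) replicate 1, no region of the genome passed in this comparison (limma, 1915 and 2915 higher at an unadjusted p under 0.05), and the label tag differs between these lines as well.

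At the tested Hoxd9 region the mutant was higher at 120 h and not at 96 h. At 96 h this region held 46 and 35 fragments in wt and 36 and 37 in Del(CBS1-2), so that the mutant did not stand above wt. The second Hoxd9 region was called at 96 h in Del(CBS1-2) replicate 1 only, with 25 fragments. The paper, from profiles corrected with HoxA as a guide, reports a weak acetylation gain over Hoxd9 at 96 h and a stronger one at 120 h. It also reports less acetylation over the anterior part at 96 h, and at 120 h a smaller Hoxd8 gain than in Del(CBS1). Here, without that correction, the Hoxd8 regions at 120 h went the other way, higher in Del(CBS1-2) than in Del(CBS1) by 0.60 and 0.59. These Hoxd8 calls were lost under loess. Among the 20750 regions called in all 8 libraries of both stages, the genotype difference at Hoxd9 was -0.58 at 96 h and 0.76 at 120 h, and the interaction of genotype and stage was 1.35 (SE 0.25, adjusted p = 0.0206). This was 1 of 7 regions called in that test, 0.0337% of those tested, but it was called in 2 of the 8 fits that each left out 1 library, with adjusted p-values up to 0.365, and in simulated data the test made 2 false calls over 20750 regions. At the Hoxd3 start the mutant was already higher at 96 h, with 112 and 94 against 218 and 242 fragments, and the interaction was -0.15 (adjusted p = 0.824). Hoxd8 could not be tested, because its start region was not called in wt replicate 1 at 96 h and held 19 fragments in replicate 2 and 25 and 24 in the mutant.

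**Figure D2:**
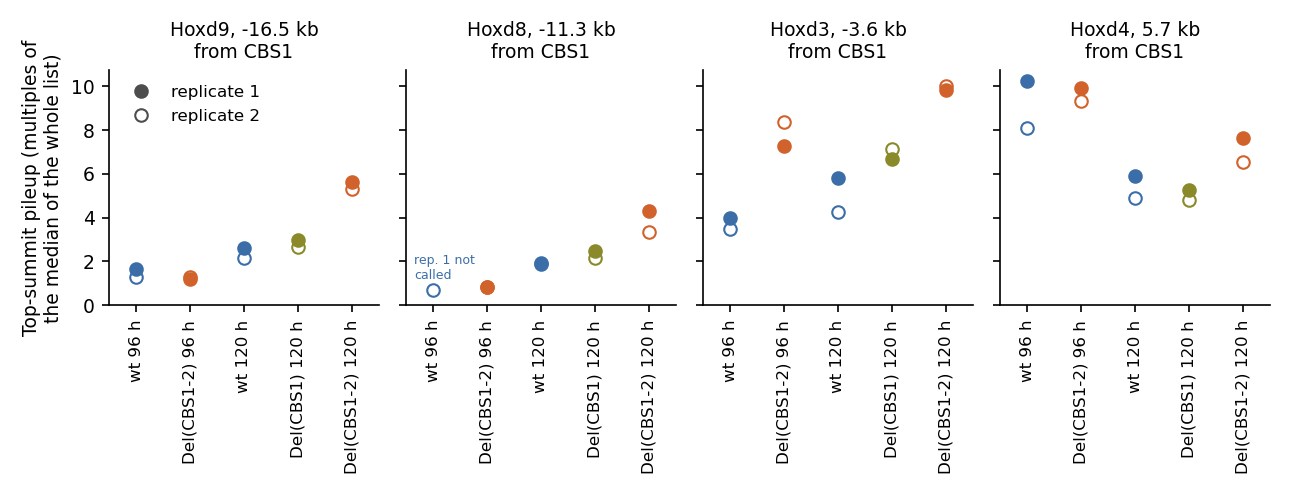
Pileup in multiples of the median of the whole list of each library, for 4 HoxD regions (summit position from CBS1 over each panel), in wt at 96 h and 120 h, Del(CBS1-2) at 96 h and 120 h, and Del(CBS1) at 120 h, with filled circles for replicate 1 and open circles for replicate 2. Hoxd9 and Hoxd8 stood highest in Del(CBS1-2) at 120 h, and the Hoxd3 start was higher in Del(CBS1-2) than in wt at both stages. Hoxd4 was lower at 120 h than at 96 h in wt and in Del(CBS1-2). At 120 h whole-list medians (24 in wt, 31 and 30 in the mutant) differ less than those over tested regions. The mutant points therefore stand higher here than after the centring of the text. Hoxd4 has 7.61 and 6.53 against 5.92 and 4.92 in wt, but a centred difference of 0.06.

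Across the genome, promoters stood higher and distal regions lower in Del(CBS1-2) relative to the library medians. Of the 12103 tested promoter regions 1080 were called higher (8.92%) and 30 lower (0.248%), whereas of 18305 distal regions 176 were higher (0.961%) and 245 lower (1.34%). The median difference was 0.20 for promoters, 75.3% of which lay above 0, and -0.09 for distal regions, and 0.35 and 0.06 when libraries were scaled to their lowest background instead. The shift followed height and base composition. Over 5 equal groups of tested regions by pileup, the median ran from -0.12 to 0.31 for promoters and from -0.26 to 0.16 for distal regions, from the lowest to the highest. Over 5 equal groups by GC content it ran from -0.18 in distal regions with a median GC content of 40.8% to 0.22 in those of 67.2%. Depth, height and GC content moved together with genotype here, and their part in the shift was not tested.

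These calls depended on the scaling and on single libraries. Against the main counts of 1256 higher and 275 lower, cyclic loess gave medians of 0.07 for promoters and -0.05 for distal regions and called 44 regions higher (0.145%) and 72 lower (0.237%), and centring on the promoter medians, chosen after seeing the data, called 251 higher (0.825%) and 1407 lower (4.63%), while scaling to the background called 3363 and 227. Without mutant replicate 1 there were 404 higher and 181 lower, without mutant replicate 2 there were 55 and 33, and without wt replicate 1 there were 2788 and 588, and with the unnumbered wt library added limma called none in either direction (864 higher and 788 lower at an unadjusted p under 0.05).

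**Figure D3:**
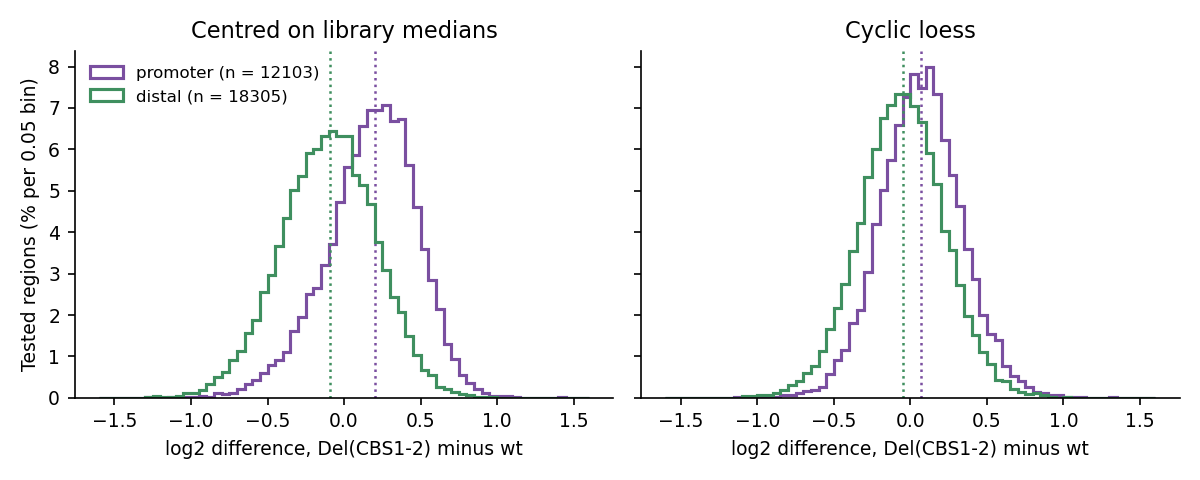
Distribution of the log2 difference, Del(CBS1-2) minus wt, over 12103 promoter and 18305 distal regions, in percent of regions per bin of 0.05, after centring on library medians (left) and after cyclic loess (right), with dotted lines at the medians. The promoter curve lies to the right of the distal curve on both sides, by medians of 0.20 and -0.09 on the left and 0.07 and -0.05 on the right.

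Under both scalings 34 promoters and 10 distal regions were called higher, and 8 promoters and 41 distal regions lower. The promoter of Nnat, an imprinted gene of the developing nervous system that encodes neuronatin (chr2:157560154-157561234), rose the most among promoters, from 28 and 20 fragments in wt to 88 and 117 (1.43, SE 0.20, adjusted p = 0.00126, and 0.000818 under loess). Cdon, a co-receptor of Hedgehog proteins, had 46 and 44 against 156 and 151 fragments (1.10, adjusted p = 0.0012). Pfkl, a phosphofructokinase of glycolysis, had 49 and 46 against 132 and 179 (1.02), and Pck2, the mitochondrial phosphoenolpyruvate carboxykinase, 18 and 17 against 50 and 66 (1.04). These promoters were all called under both scalings. Their raw pileups were higher in both mutant libraries than in both numbered wt libraries, which follows from picking the largest gains in deeper libraries. At all of the 10 largest promoter gains the unnumbered wt library and both Del(CBS1) libraries also stood above both numbered wt libraries in raw pileup. The unnumbered wt library had 65 fragments at Nnat, 80 at Cdon, 116 at Pfkl and 25 at Pck2, below both mutant libraries. Del(CBS1) had 71 and 88 at Nnat, 74 and 90 at Cdon, 119 and 109 at Pfkl and 40 and 45 at Pck2. Over whole lists the median pileup was 24 in both numbered wt libraries, 30 in the unnumbered one and 26 and 27 in Del(CBS1).

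The other promoters among the 10 largest gains were those of Nt5c2, a cytosolic nucleotidase, Vamp9, Klhl15, Stx4a, a syntaxin, Tbc1d32 and Apbb2, with differences between 1.02 and 1.13, and they were called under both scalings too. The promoter losses were near the lower end of the lists. Csrnp3 (chr2:65845940-65846549) had 27 and 30 fragments in wt and 21 and 17 in the mutant, a centred difference of -1.26 (adjusted p = 0.00646, and 0.0292 under loess). Xylt1, a xylosyltransferase that starts proteoglycan chains, Mid1, a ubiquitin ligase, and Pou3f3, a POU transcription factor of the nervous system, followed with -1.11, -1.07 and -0.90. At these the raw pileups of both genotypes were similar or lower in the mutant, against a library median that was higher there. Fchsd1, Vamp8, Eepd1, Cpd, Echdc2 and Txlnb completed the 10, between -0.86 and -1.05, and of the 10 only Csrnp3 and Vamp8 were also called under loess.

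Distal regions called higher lay close to genes. Their median distance to a protein-coding start was 11.2 kb, against 44.3 kb for all tested distal regions and 56.1 kb for those called lower. The highest difference, 1.15, was 5294 bp from Gm21887 on the X chromosome, with 166 and 114 against 483 and 490 fragments, but this gene has near-identical copies and mapping there is uncertain. Next were regions near Mef2b (20 and 25 against 82 and 68, 1.07), Kdm5b, a histone H3K4 demethylase (38 and 33 against 107 and 119, 1.00), and Tubb3, a neuronal tubulin (23 and 22 against 72 and 70, 0.98). Regions near Gm17655, Taf8, Suox, Rdm1, Myom3 and Drd1 gave 0.91 to 0.97. In each of these 10 the raw pileups of both mutant libraries stood above both numbered wt ones. That adds nothing to the calls, since the regions were picked as the largest gains and the mutant libraries were deeper. Suox alone was not called under loess (adjusted p = 0.0621). The unnumbered wt library had 166 fragments at Rdm1, above both mutant libraries (147 and 149), and 47 at Suox, between both (40 and 61). At all 10 but Myom3 the unnumbered wt library and both Del(CBS1) libraries stood above both numbered wt libraries in raw pileup. At Myom3 the unnumbered wt library had 15 fragments and Del(CBS1) 39 and 32, against 32 and 27 in the numbered wt libraries.

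Distal regions called lower were AT-rich and far from genes, with a median GC content of 42.3% against 48.3% for all tested distal regions and 57.2% for those called higher. The largest loss was 51610 bp from Atxn7l3b (chr10:112877096-112877862), from 23 and 28 fragments in wt to 14 and 15 (-1.48, SE 0.24, adjusted p = 0.00452). Regions nearest to Arpp21, Rgn, Fbxo8, Tmem204, Rbfox1, a splicing factor of neurons and muscle, Cdh2, which encodes N-cadherin, Tspan3 and Stard3nl gave -1.36 to -1.22, and those of Tmem204 and Stard3nl were not called under loess. The Cdh2 region is 377 kb from that start, so the name gives only the nearest gene. All 4 pileups of these regions were between 13 and 36 fragments, near the lowest listed pileups of 10 in wt and of 13 and 12 in the mutant, and regions lost below that threshold in either group were not tested.

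Other readouts of wt stembryos, each from 1 list, overlapped the distal classes to different extents. Regions of RNA polymerase II at 120 h overlapped 70.5% of the distal regions called higher, 6.53% of those called lower and 13.8% of all tested distal regions. NIPBL, the cohesin loader, overlapped 61.9%, 24.9% and 31.7%, and CTCF at 168 h 25.6%, 9.8% and 11.2%. CDX2, the posterior homeodomain factor, overlapped 9.09%, 2.86% and 5.53%. Of short motifs searched on both strands within 100 bp of the summit, the SP/KLF core GGGCGG was found in 21% of the higher regions, 3.67% of the lower ones and 4.83% of all tested distal regions, and the SOX core ACAAAG in 14.8%, 26.9% and 20.9%. These shares follow the GC content of the classes, and a match is not a bound site. The classes also differ in height and width, and how far the overlaps follow these was not tested.

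The distal classes overlapped the lists of the wt time course to different extents. Regions called higher were mostly present from early on, 73.9% of them at 48 h and between 79.5% and 95.5% from 72 h, against 30.4% at 48 h for all tested distal regions. Those called lower overlapped the list at 48 h in 22.4%, at 120 h in 40.4% and at 168 h in 62% of cases, whereas all tested distal regions peaked at 108 h with 66.2% and had 58.6% at 168 h. Each stage is 1 library, and their lengths differ. Distal regions called higher were also taller and wider than those called lower. Their medians were 56.5 and 50.5 against 27 and 25 fragments in wt, and 1128 against 682 bp. How far the overlaps follow height and width was not tested.

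**Figure D4:**
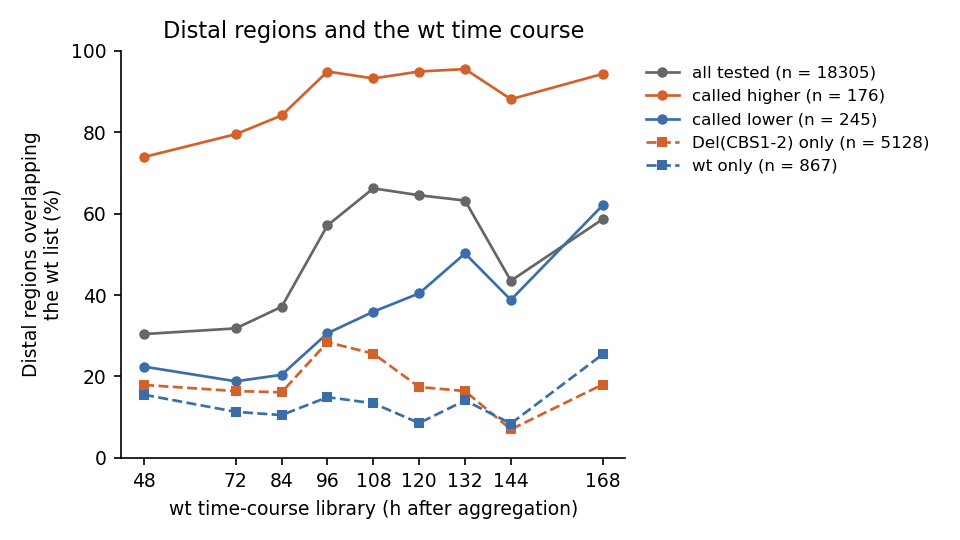
Percent of distal regions that overlap the H3K27ac list of wt stembryos at each stage of the time course (hours after aggregation, 1 library a stage), for all tested distal regions, those called higher or lower in Del(CBS1-2), and those listed in 1 genotype only. The called higher regions stay between 73.9% and 95.5%, and the called lower regions reach their highest value, 62%, at 168 h.

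Many regions were listed in 1 genotype only. Both mutant lists and neither wt list held 5128 distal and 622 promoter regions, and both wt lists and neither mutant list 867 and 76. The mutant lists were longer, and with all 4 lists cut to equal length the totals were 3223 and 1403, so that the excess in the mutant shrank. Regions of both kinds were low, with median pileups of 20 and 22.5 fragments for the mutant-only distal and promoter regions and 14 and 15.25 for the wt-only ones, and 39.3% and 45.4% of the distal ones lay within 1 kb of a region of the other genotype. Of the mutant-only distal regions 48.8% and 48% were also in the 2 Del(CBS1) lists, against 91.4% and 89.9% of all tested distal regions. At 96 h the Del(CBS1-2) lists held 39.3% and 39.7% of them and the numbered wt lists 35.4% and 28.5%. For all tested distal regions these shares were 66.5% and 66.4%, and 64.6% and 60%. The wt time course held 28.4% of the mutant-only ones at 96 h and 17.4% at 120 h, against 57.1% and 64.5% of all tested ones. H3K27me3 at 120 h overlapped 134 of the 622 mutant-only promoters, 16 of the 76 wt-only promoters and 602 of the 12103 tested ones.

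Axial progenitor genes, which maintain the bipotent cells of the tail bud, had 17 tested promoter regions, of 12 of the 20 listed genes, and 3 of these regions were called higher and none lower. Their median was 0.29, against 0.20 for all promoters. The called regions were both promoter regions of Lin28a, an RNA-binding protein that blocks the let-7 microRNAs, and 1 of Gdf11, the TGF-beta ligand of the trunk-to-tail transition. At Gdf11 (chr10:128890464-128891480) the pileup was 58 and 47 fragments in wt and 157 and 142 in the mutant (0.84, SE 0.15, adjusted p = 0.00545), and at the stronger Lin28a difference (chr4:134016936-134018867) 104 and 93 against 242 and 240 (0.62, adjusted p = 0.00741). At each the raw pileups of both mutant libraries were the higher ones, which adds nothing to the calls because the mutant libraries were deeper. The promoters of T, Cdx1, Cdx2 and Fgf8, which drive axis elongation, gave 0.20, 0.03, 0.29 and 0.48 and did not pass. Of 46 distal regions near these genes 2 were higher and 1 lower, against 0.961% and 1.34% of all distal regions. A region of Greb1 (58 and 49 against 151 and 120, 0.66) and 1 of Wnt5a, a Wnt ligand (51 and 45 against 122 and 106, 0.57), were higher, and 1 near Cyp26a1, which degrades retinoic acid, was lower (19 and 18 against 17 and 15, -0.89, adjusted p = 0.0313).

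Paraxial mesoderm and somite genes had 19 tested promoter regions, of 15 of the 24 listed genes, with a median of 0.35, and 3 were called higher and none lower. These belonged to Uncx, a homeobox gene of the posterior somite, with 25 and 18 against 56 and 68 fragments (0.87, SE 0.22, adjusted p = 0.024), to Foxc2, a forkhead gene of the somites, with 43 and 32 against 93 and 107 (0.75, adjusted p = 0.0194), and to Pax3, a paired-box gene of the dermomyotome, with 38 and 36 against 87 and 100 (0.66, adjusted p = 0.0327). The other 16 did not pass, with values from -0.29 at Meox2, a homeobox gene of the somites, to 0.53 at Rspo3, a secreted activator of Wnt signalling. Among them a second Pax3 region gave -0.27, the Notch ligand genes Dll1 and Dll3 gave 0.37 at both Dll1 regions and 0.35 at Dll3, and the presomitic genes Tbx6, Msgn1 and Hes7 gave -0.20 to 0.03. The unnumbered wt library held 59, 84 and 76 fragments at the called Uncx, Foxc2 and Pax3 promoters, above both numbered wt libraries at each. Of 70 distal regions 3 were higher (0.961% of all distal regions), near Snai1, a zinc-finger gene of epithelial-mesenchymal transition, Uncx and Foxc2.

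Neural tube genes had 13 tested promoter regions, of 10 of the 26 listed genes, with a median of 0.24, and 2 were called higher and none lower. Gbx2, a homeobox gene of the posterior neural plate, had 76 and 51 against 160 and 154 fragments (0.66, adjusted p = 0.019), and Hes5, an effector of Notch in neural progenitors, 43 and 42 against 111 and 93 (0.58, adjusted p = 0.0493). The promoters of the neural progenitor genes Sox2, Sox1 and Pax6 ranged from -0.09 to 0.45 and did not pass. Of 71 distal regions 2 were higher (0.961% of all distal regions), near Gbx2 and near Foxb1, a forkhead gene of the neural tube (86 and 79 against 183 and 178, 0.46, adjusted p = 0.0469).

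In each of these lists the background of 8.92% would amount to between 1 and 2 promoter regions, and no list member was called lower among these promoters. As a comparison with genes that every cell uses, of 19 tested housekeeping promoter regions 6 were called higher (Actb, Gapdh, Rpl13a, Eef1a1 and 2 of Ywhaz), with a median of 0.38. Among the promoters in the highest of the 5 groups by pileup 858 of 4357 were called higher. No region of any list was called under cyclic loess, where the medians of the axial, mesoderm, neural and housekeeping promoters were 0.09, 0.13, 0.18 and 0.07. With promoters and distal regions together, the axial, mesoderm and neural lists had 5, 6 and 4 regions called higher, 1, 0 and 1 without mutant replicate 2, 2, 3 and 0 without mutant replicate 1, and 12, 10 and 6 without wt replicate 1.

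**Figure D5:**
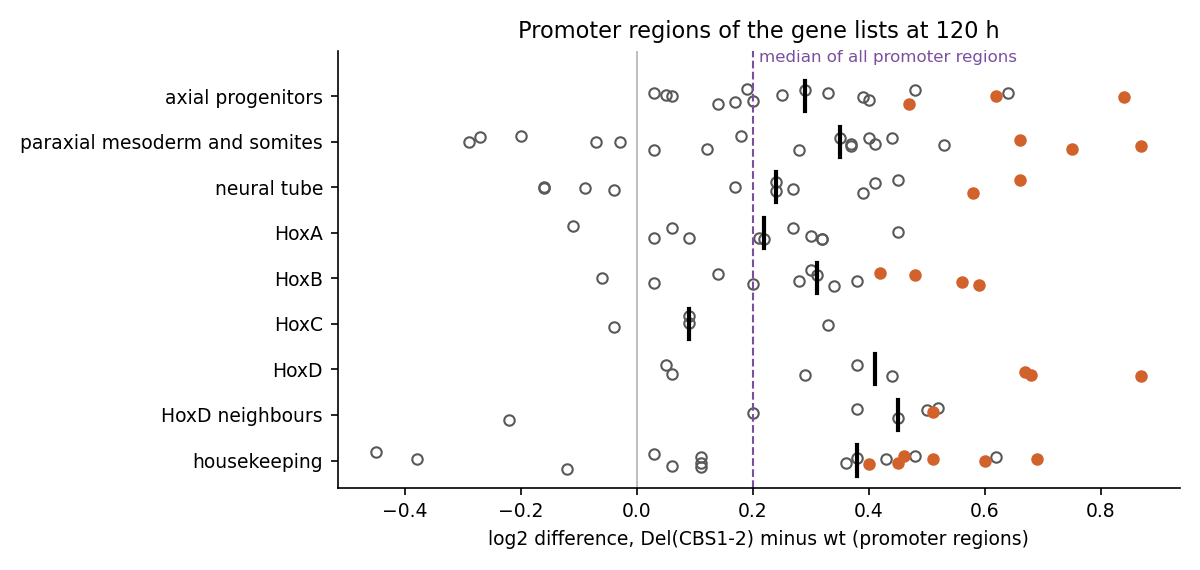
log2 difference, Del(CBS1-2) minus wt, of each tested promoter region of 9 gene lists, with filled circles for regions called higher, black bars for list medians and a dashed line for the median of all promoter regions. Most values of every list lie above 0, and the called regions of the axial, mesoderm and neural lists lie between 0.47 and 0.87.

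Markers of other cells that stembryos can hold were thinly represented. Endoderm genes had 3 tested promoter regions, cardiac and vascular genes 1, pluripotency genes 2 and anterior brain genes 1, and none was called by limma (0 higher and 1 lower at an unadjusted p under 0.05), with differences from -0.47 for Hesx1, of the anterior brain, to 0.19 for the region shared by Foxa3 and Sympk. A distal region near Tbx3 was lower (27 and 27 against 19 and 22 fragments, -1.08, adjusted p = 0.0128).

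Of the other Hox clusters HoxB carried calls and HoxA and HoxC did not. In HoxB 4 of 13 promoter regions were higher, at Hoxb1 (93 and 108 against 227 and 256, 0.59, adjusted p = 0.016), Hoxb7 (132 and 119 against 300 and 288, 0.56), Hoxb5 (139 and 145 against 319 and 313, 0.48) and Hoxb2 (145 and 129 against 288 and 297, 0.42), and 4 of 12 distal regions, against 8.92% of all promoter and 0.961% of all distal regions. The distal ones were near Hoxb9, Hoxb3, Hoxb2 and Hoxb4, between 0.38 and 0.70, of which that near Hoxb4 turned to -0.01 under loess. The median of the HoxB promoters was 0.31, and 0.01 under loess. In HoxA 0 of 11 promoter regions passed the limma test (4 higher at an unadjusted p under 0.05), with a median of 0.22, and in HoxC 0 of 4 (1 higher at an unadjusted p under 0.05), with a median of 0.09. Whether HoxD differed from HoxB was not tested, and of the 8 promoter regions of HoxD 3 were called, with a median of 0.41 and of 0.18 under loess.

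Some gene list promoters had regions in the mutant lists only, which were the longer lists. These were 5 of 28 promoter regions of the axial list, 4 of 35 of the mesoderm list and 3 of 24 of the neural list. Over all promoters 622 regions were in the mutant lists only, beside 12103 in all 4 lists. Whether the gene lists differ from that was not tested. In the axial list the mutant-only regions were at Cdx4 (67 and 63 fragments), a posterior homeobox gene, Sp5 (50 and 66), a target of Wnt signalling, Wnt8a (35 and 36) and 2 regions of Epha5. Foxc2, Hes7, Msgn1 and Twist1 in the mesoderm list, Gbx2, Sox3 and Pou3f1 in the neural list, and Hoxb6 (233 and 240), Hoxc9 and Hoxc4 had such regions too, and all but that of Pou3f1 lay within 2645 bp of a region listed in wt. The wt lists alone held a region at the promoter of Zic1, a zinc-finger gene of the dorsal neural tube, at 15 and 21 fragments.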

How the data were processed

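H3K27ac ChIP-seq of pooled stembryos was used, mainly the 2 Del(CBS1-2) and 2 wt libraries at 120 h. Per the labels and the study's methods the authors trimmed reads (cutadapt 1.16), mapped them to mm10 (Bowtie2 2.3.4.1, SAMtools 1.8) and called peaks in each library separately, without a control (MACS2 2.1.1.20160309). The deposited lists give for each summit a fold enrichment, a ratio of the fragment pileup to the local background, and the −log10 p-value and −log10 q-value. The lists hold no read totals, and the sequencing depths stated by the study were not used.

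From fold and −log10 p-value the whole-number pileup and the background were solved for each summit (tolerance 0.001 on −log10 p), which recovered between 99.99% and 100% of summits. Regions of the lists that overlapped by at least 1 bp were merged, on 21 chromosomes, and took the pileup of their top summit. Promoter regions overlapped 1 kb on either side of a protein-coding start (GENCODE M21), and distal regions were assigned to the nearest start, within 100 kb for gene lists. log2 pileups of regions called in all lists compared were centred on the library median and tested with limma 3.58.1 in R 4.3.3 (eBayes with trend, two-sided, Benjamini-Hochberg adjustment over all tested regions), with python 3.11.15, numpy 2.4.6, pandas 2.3.3, scipy 1.17.1, pysam 0.24.0 and matplotlib 3.10.9 for the rest. Regions that passed in 1 genotype only could not enter the test, so it is blind to the strongest gains and losses. On simulated pileups of 30408 regions the 120 h test recovered 47 of 100 regions changed by a log2 of 1.0. Of those changed by 0.6 it recovered 7 of 100, with 0 false calls. Over 20750 regions the interaction test recovered 22 and 1 of 100, with 2 false calls. The simulation held counting error and small independent noise only. It had no shift between libraries by height, GC content or region class, so its false calls do not measure those of the real data.

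Depth was judged from the lowest background of each list (its 0.1% quantile). Intervals cover counting error only. All axial progenitor, mesoderm, neural, HoxD and neighbouring genes could be named, besides the 10 promoter and 10 distal regions with the largest differences in each direction and members of the other lists that were called. Of the distal regions chosen in this way 1 is not reported here. Regions named from the other lists that were not called, and the telomeric region that differed between both deletion lines, were chosen after their values were seen. Members and lists were chosen with earlier results of these data known. Other scalings, list filters, left-out libraries, a replicate block and an added wt library were tried. Peak lists of CDX2, NIPBL, RNA polymerase II and H3K27me3 served only for overlaps. The CTCF lists served for overlaps, for the motif search and for pileups at called CTCF regions of HoxD. The wt H3K27ac time course served for overlaps, and its 120 h library also for pileups and as the added wt sample. Samples of the series not named here were not used.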

Additional observations from a re-analysis of the deposited data

Results flagged for a closer look

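In 7 regions the difference between Del(CBS1-2) and wt at 120 h was not the one measured at 96 h, by the limma interaction of genotype and stage over 20750 regions (Benjamini-Hochberg adjusted p under 0.05). All values are differences of the centred log2 pileup. The Hoxd9 promoter region, described with HoxD, had an interaction of 1.35 (adjusted p = 0.0206). A distal region 67439 bp from Nfat5, an osmotic-stress transcription factor, had 82 and 77 fragments in wt against 44 and 49 in the mutant at 96 h and 30 and 26 against 56 and 57 at 120 h, with an interaction of 1.46 (adjusted p = 0.0206). Distal regions nearest to Chd9, a chromatin remodeller, and Sema6a, a semaphorin, gave 1.42 (adjusted p = 0.0327) and 1.39 (adjusted p = 0.0372). These distal regions were lower in the mutant at 96 h, by -1.22 near Nfat5, -1.06 near Chd9 and -1.10 near Sema6a, and the values at 120 h were 0.24, 0.36 and 0.29.

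The other 3 regions went the opposite way. The promoter of Mus81, a DNA repair nuclease, had 91 and 62 against 192 and 156 fragments at 96 h and 126 and 109 against 163 and 141 at 120 h, with an interaction of -1.17 (adjusted p = 0.0206). A distal region nearest to Arl4a gave -1.30 (adjusted p = 0.0327) and the promoter of Nr1d2, a nuclear receptor of the circadian clock, -1.34 (adjusted p = 0.0372). With a replicate block Sema6a (adjusted p = 0.0559) and Nr1d2 (adjusted p = 0.0548) were not called. In simulated data with no change at the rest of 20750 regions the test made 2 false calls. None of the 7 was called in every fit that left out 1 of the 8 libraries. They were called in 1 to 4 of the 8, and the highest adjusted p-values lay between 0.299 and 0.404.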

How the results depend on the processing

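Counts of regions called higher and lower (1256 and 275, limma, Benjamini-Hochberg) were 3363 and 227 with background scaling, 44 and 72 with cyclic loess, 251 and 1407 with promoter medians centred, 462 and 446 with a stricter −log10 q minimum of 5, 1616 and 590 with windows of 500 bp, and 0 and 0 with regions in at least 3 of 4 lists, with the unnumbered wt library added and with sums of summits. At an unadjusted p under 0.05 these last 3 gave 3791 and 3193, 864 and 788, and 1513 and 1689. Leaving out 1 library, with the lone sample of its group assumed to vary like the others, gave 55 to 2788 higher and 33 to 588 lower. The replicate numbers did not pair the samples (correlation of same-numbered deviations -0.018 over 30408 regions), and a replicate block gave 1602 and 456. Promoters called higher (1080) were 30, and distal regions called lower (245) were 85, with both classes centred apart, chosen after seeing the data like the promoter centring, and 404 distal regions were lower with the block. The distal median (-0.0923) was 0.0553 with background scaling. Regions in the mutant only (5750) were 3223 at equal list length and 9276 to 16703 with 1 list less, and those in wt only (943) were 1403 at equal list length, which is within 1.5 times, 189 with the stricter q and 1988 to 7495 with 1 list less. Axial, mesoderm and neural regions called higher (5, 6 and 4) were 9, 15 and 7 with background scaling, 0 with loess, 2, 0 and 0 with promoter centring, 1 to 12, 0 to 10 and 0 to 6 without 1 library, and 2 for the neural list within 50 kb. HoxD calls (3) were 5 with background scaling, 0 with loess and 2 to 5 without 1 library. The rise in the HoxD pileup share at Hoxd9 and Hoxd8 (4.65 percentage points) was 6 over all its regions, where the share up to CBS1 no longer separated wt replicate 2 from the mutant. Interaction calls (7) were 0 to 14 without 1 library. Calls against Del(CBS1) (764 and 192) were 1249 and 523 with the block, 432 and 197 with promoter centring, and 0 to 563 and 0 to 76 without 1 library (1915 and 1390 at an unadjusted p under 0.05 without mutant replicate 1). Of 87 regions named in the comparison with wt at 120 h the block changed the call of none, and it left 5 of the 7 interaction calls. Directions turned in HoxD regions near 0. Hoxd3 at 74714062 (0.10) gave -0.20 (loess), -0.10 (promoter), -0.03 (stricter q) and -0.03 (sum). Hoxd4 at 74721359 (0.06) gave -0.29, -0.14, -0.07 and -0.04, and -0.06 to 0.17 without 1 library. Hoxd4 at 74722117 (0.05) gave -0.22, -0.15 and -0.08, and -0.05 to 0.22. Hoxd3 at 74732658 (0.03) gave -0.27, -0.18 and -0.54 (sum), and -0.10 to 0.17, at 74740036 (0.29) -0.05 (loess), at 74741646 (0.12) -0.11, -0.08 and -0.47 (sum), and -0.23 to 0.47, and at 74749129 (-0.08) 0.07 (background), and -0.15 to 0.07. Hoxd1 at 74752442 (-0.11) gave 0.04 (background), and -0.32 to 0.09, at 74753195 (0.06) -0.05 and -0.14, and -0.04 to 0.23, and at 74759427 (-0.27) -0.63 to 0.08. With sums of summits the direction also turned at Snai1 (-0.18), Gm17655 (-0.17), Gapdh (-0.13), Rpl13a (-0.19), Greb1 (-0.16), Drd1 (-0.42) and Taf8 (-0.09), and with loess near Hoxb4 (-0.01). The cause of these changes was not tested.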
